A study of Mus musculus with 2 samples.

Results

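The replication-dependent histone genes supply the core histones H2A, H2B, H3 and H4 and the linker histone H1 that package newly copied DNA. They were taken as the protein-coding genes of the GENCODE M21 annotation whose symbols begin with Hist1h, Hist2h, Hist3h or Hist4, which gave 67 of 21938 protein-coding genes. They comprised 6 H1 genes, 18 H2A genes, 18 H2B genes, 12 H3 genes and 13 H4 genes. Of these, 54 lay in a pair of Hist1 clusters on chromosome 13, 10 in the Hist2 cluster on chromosome 3, 2 in the Hist3 cluster on chromosome 11, and Hist4h4 stood alone on chromosome 6.

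Open chromatin was mapped by DNase-seq, in which the enzyme DNase I cuts DNA that is not wrapped in nucleosomes. The tissue was whole kidney from male mice of the strain B6CASTF1/J, the F1 cross of the inbred lines C57BL/6J and CAST/EiJ, and the animals were 25 days old. There were 2 libraries, labelled biological replicates 1 and 2, with separate biosample codes but the same donor code. They form a single group without a treatment or a comparison group, so no test between conditions was possible and each value is given per library.

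Genes of this family are transcribed mainly during DNA synthesis, when their products are needed in bulk. Most of their transcripts carry no poly(A) tail and end in a short stem-loop that the stem-loop binding protein Slbp recognises. NPAT gathers at the clusters in a nuclear body and activates the genes at the entry into S phase, through class-specific promoter elements such as the HINFP site of H4 genes and the octamer of H2B genes. H2A and H2B genes often stand head to head and share the DNA between their start sites. In bulk tissue, a site open in few cells and a site weakly open in many cells cannot be told apart.

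The longer list of peaks held 125393 peaks in replicate 1 and 177001 in replicate 2, and the footprint lists held 237471 and 493495 footprints, which are short protected stretches inside open chromatin. A gene is called open here when a peak lies within 500 bp of any of its annotated transcription start sites in both libraries, and its height is the authors' signal at the highest such peak. Among 12 kidney markers, 10 were open, and the collecting duct gene Aqp2 and the podocyte gene Nphs1 had a peak in replicate 2 only. None of 8 markers of other organs had a promoter peak in either library. All 20 genes of a list of cell division genes were open, against 65.3% of all protein-coding genes, with median heights of 11.5 and 12.9. The kidney markers with a peak had lower medians, 1.62 and 1.17.

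The sequences below show the DNA on which the results turn, read from the mouse genome GRCm38.p6 (the base of mm10). The first 3 are the stretches between the annotated 5′ ends of the head-to-head pairs with the highest shared peaks by the mean of both libraries, and the fourth is a pair without a peak. They are written on the forward strand. Capitals mark matches on either strand to motifs known from histone promoters. The factor NF-Y binds CCAAT, and the TATA box was searched as TATAAA. The octamer bound by Pou2f1 was searched as ATTTGCAT. For E2F the letters were TTTGGCGC or, as a second form, TTTCGCGC. Promoters of H1 genes carry AAACACA. The core of the H4 element is GGTCCG.
Hist1h2ag and Hist1h2bj, chr13:22042945-22043213: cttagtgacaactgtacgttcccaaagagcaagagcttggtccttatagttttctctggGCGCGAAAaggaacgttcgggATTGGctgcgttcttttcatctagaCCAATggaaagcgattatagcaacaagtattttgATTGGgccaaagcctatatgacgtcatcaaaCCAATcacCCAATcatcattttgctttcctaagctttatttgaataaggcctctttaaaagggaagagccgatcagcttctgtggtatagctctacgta
Hist1h2bf and Hist1h2ad, chr13:23574197-23574380: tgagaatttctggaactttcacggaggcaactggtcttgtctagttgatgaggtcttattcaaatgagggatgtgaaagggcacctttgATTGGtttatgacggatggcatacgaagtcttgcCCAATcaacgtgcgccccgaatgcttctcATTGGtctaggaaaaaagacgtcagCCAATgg
Hist2h2ac and Hist2h2be, chr3:96220881-96221118: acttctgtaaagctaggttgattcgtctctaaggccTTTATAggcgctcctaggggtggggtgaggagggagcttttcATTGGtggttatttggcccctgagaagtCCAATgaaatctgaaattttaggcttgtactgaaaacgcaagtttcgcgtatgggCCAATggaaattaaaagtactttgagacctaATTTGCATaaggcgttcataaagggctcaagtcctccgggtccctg
Hist1h2bq and Hist1h2ao, chr13:21810198-21810464, no peak: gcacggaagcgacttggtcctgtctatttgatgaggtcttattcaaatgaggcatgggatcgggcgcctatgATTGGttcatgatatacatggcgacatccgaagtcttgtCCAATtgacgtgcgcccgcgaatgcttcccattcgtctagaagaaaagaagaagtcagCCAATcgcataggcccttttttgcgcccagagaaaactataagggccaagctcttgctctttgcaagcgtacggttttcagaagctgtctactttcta

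The 250 bp upstream of the annotated 5′ end are shown, on the coding strand, for the H1 gene and the H4 gene with the highest promoter peaks and for Hist1h4c, the second highest H4 promoter. Hist1h4c was added after the values were seen, because it carries the H4 element core that Hist1h4a lacks.
Hist1h1e, chr13:23622559-23622808, minus strand: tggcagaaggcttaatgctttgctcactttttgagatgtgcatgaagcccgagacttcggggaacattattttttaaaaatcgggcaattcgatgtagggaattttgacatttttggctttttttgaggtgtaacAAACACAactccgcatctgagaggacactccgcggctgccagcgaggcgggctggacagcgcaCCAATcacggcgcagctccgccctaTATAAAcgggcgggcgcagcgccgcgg
Hist1h4a, chr13:23761231-23761480, minus strand: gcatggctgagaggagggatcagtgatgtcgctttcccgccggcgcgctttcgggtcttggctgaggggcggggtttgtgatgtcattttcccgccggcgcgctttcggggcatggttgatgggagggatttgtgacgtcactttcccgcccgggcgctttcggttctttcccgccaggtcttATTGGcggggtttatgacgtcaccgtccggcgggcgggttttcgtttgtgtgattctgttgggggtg
Hist1h4c, chr13:23698455-23698704, minus strand: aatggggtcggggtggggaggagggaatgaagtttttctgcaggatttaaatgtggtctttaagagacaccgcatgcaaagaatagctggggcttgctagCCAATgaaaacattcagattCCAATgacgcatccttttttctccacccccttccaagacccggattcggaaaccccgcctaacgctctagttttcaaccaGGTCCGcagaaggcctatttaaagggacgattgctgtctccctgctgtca

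Most replication-dependent histone genes were open in the kidney, and most of their peaks were low. A total of 57 of 67 members (85.1%) had a promoter peak in both libraries, against 65.3% of all protein-coding genes. Their promoters are rich in CpG: 51 members fell in the upper 2 of 10 equal bins of all protein-coding genes ranked by CpG ratio. Weighted to the members' spread over these bins, 94.5% of protein-coding genes were open. By class, 5 of 6 H1, 15 of 18 H2A, 15 of 18 H2B, 9 of 12 H3 and 13 of 13 H4 genes were open.

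The median height over members with a peak was 3.22 in replicate 1 and 3.95 in replicate 2, against 7.36 and 6.63 over all open protein-coding genes. These medians sat at the 28.1 and 35.7 percentile points of all promoter peak heights. For medians and shares taken within 1 library, open genes are those with a peak in that library. Protein-coding genes with a peak and a CpG ratio at or above the members' median had higher medians, 11.5 and 9.57. That set is richer in CpG than the members, with a median ratio of 0.937 against 0.879. Above the 90th percentile in both libraries stood 1 member, Hist1h4a, against 4.33% of all protein-coding genes. Because neighbours share peaks, the 59 and 57 members with a peak drew on 50 and 47 distinct highest peaks.

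The libraries ordered the members alike. Over the 57 open members, the heights had a Spearman correlation of 0.932, which is across genes that share libraries and, in pairs, peaks. The log2 ratio of replicate 2 to replicate 1 had a median of 0.17 (SD 0.49 over the 57 members), against -0.05 over all protein-coding genes open in both. It stayed within a factor of 2 for 53 of the 57. That factor is a chosen limit on how far 1 gene differed between libraries, not a measured spread between genes. It serves below only as a scale for differences between members.

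**Figure D1:**
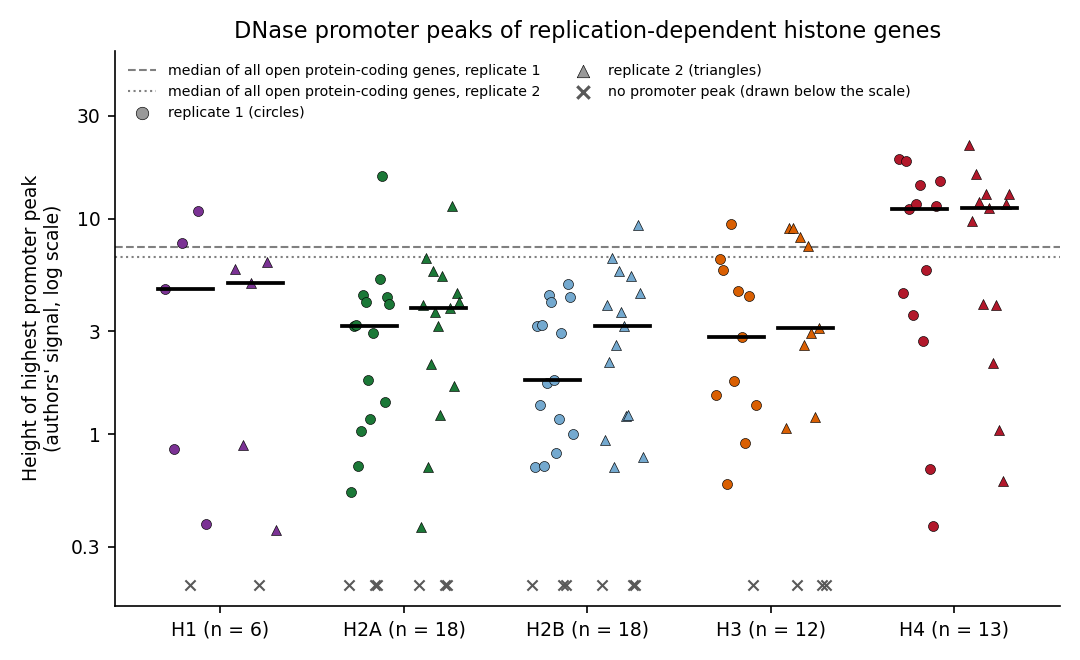
Height of the highest promoter peak (authors' signal, log scale) for each histone gene by class, with circles for replicate 1, triangles for replicate 2, black bars for class medians, crosses for genes without a peak and grey lines for the medians of all open protein-coding genes. The H4 class has the highest median in both libraries (11.1 and 11.1), and the H2B class the lowest in replicate 1 (1.78).

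H4 genes, which encode the histone with the fewest variants, had the tallest promoters of the family. Their median height was 11.1 in both libraries, at percentile points 67.6 and 70.0. Genes with a peak and a CpG ratio at or above the members' median had 11.5 and 9.57. Against these, the H4 genes stood lower in replicate 1 and higher in replicate 2. That set is not matched to the H4 genes. It begins at a CpG ratio of 0.879, and the H4 median ratio was 0.837. Of the 13, 7 in replicate 1 and 8 in replicate 2 stood above the median of all open protein-coding genes, which by definition 50% of open genes exceed. In the other 4 classes together the same held for 4 of 46 and 6 of 44 members with a peak.

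Hist1h4a was the tallest member, at 18.9 in replicate 1 and 22.0 in replicate 2. Hist1h4c followed with 18.4 and 16.1. Hist4h4, the gene outside the clusters, had 14.98 and 13.03. Hist1h4i had 14.3 and 11.1. These 4 promoters kept to the upper part of the family and to the same order in both libraries. Within a library their heights differed by less than the factor of 2 given above.

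The remaining 9 H4 genes spanned a wide range. Hist1h4h (11.6 and 13.1), Hist2h4 (11.4 and 11.6) and Hist1h4d (11.1 and 11.9) were close to each other. Hist1h4b read 4.50 in replicate 1 and 9.70 in replicate 2, the widest disagreement between libraries of any open member. Hist1h4k (5.76 and 3.98), Hist1h4f (3.56 and 3.999) and Hist1h4j (2.71 and 2.14) were lower. Lowest were Hist1h4m (0.69 and 1.04) and Hist1h4n (0.38 and 0.61), whose sequences within 500 bp of the start codon are 99.7% identical to each other. Only 4.24% and 3.31% of the 36-base words around their 5′ ends occur once in the genome. The part of this in their low heights was not tested. The peaks of these 2 genes spanned 152 bp and 140 bp, the same bases in both libraries, where the median H4 peak spanned 180 bp.

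H1 genes encode the linker histones that bind DNA between nucleosomes, and 5 of the 6 were open. Hist1h1e had 10.8 and 6.28, and Hist1h1c had 7.68 and 5.04. Hist1h1a had 4.73 and 5.84. Hist1h1b had 0.85 and 0.89, well below those 3 in both libraries. All 6 have mostly unique sequence around their 5′ ends (81.1% to 100% of 36-base words).

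Hist1h1t, the testis linker histone, had only faint peaks, 0.38 in replicate 1 and 0.36 in replicate 2. Their midpoints lay 274 bp and 406 bp past the start codon, inside the gene. Hist1h1d had no peak at its annotated 5′ end, which lies 1828 bp before its start codon. Within 500 bp of the start codon it had a peak of 2.56 in replicate 1 and 2.14 in replicate 2.

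H2A genes were mostly of modest height, with a median of 3.17 in replicate 1 and 3.83 in replicate 2. Hist2h2aa2 stood apart at 15.7 and 11.5, although only 27.8% of the 36-base words around its 5′ end occur once in the genome. Hist2h2aa1, its inverted neighbour, 89.3% identical within 500 bp of the start codon, had 5.22 and 3.83. Hist1h2ag had 4.42 and 5.73, and Hist1h2ad had 3.22 and 6.55. The other open H2A genes ranged down to Hist1h2ab, at 0.54 and 0.37.

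H2B genes had medians of 1.78 and 3.18. Hist2h2bb had 4.95 and 9.35. Hist1h2bj (4.42 and 5.73), Hist1h2bf (3.22 and 6.55) and Hist2h2be (4.32 and 4.50) took their heights from peaks they share with an H2A neighbour. No H2B gene exceeded the median of all open protein-coding genes in replicate 1, and 1, Hist2h2bb, did in replicate 2. The annotated 5′ end of Hist1h2be lies 35168 bp from its start codon, inside the annotated body of Hist1h1e. The highest peaks near that end (1.37 and 2.15) do not overlap between the libraries, and both are far from the coding sequence. At the start codon of Hist1h2be the heights were 1.37 and 0.96.

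H3 genes had medians of 2.82 and 3.11. These depended on the window: they were 4.61 and 8.25 within 1000 bp of a start site, and replicate 2 had 5.29 within 200 bp. Hist1h3e had 9.46 and 8.25. Hist1h3b had 6.52 and 9.07. Hist1h3c had 5.75 and 8.997, and Hist1h3g had 4.61 and 7.46. These 4 stood above the other H3 genes in both libraries, Hist1h3g only narrowly in replicate 1, where Hist2h3b had 4.36. Hist1h3d (0.59) and Hist2h3c2 (1.36) had a peak in replicate 1 only. Around their 5′ ends, 66.3% and 3.73% of 36-base words occur once in the genome.

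The 8 members without a promoter peak in either library fell into distinct sets by sequence. Hist1h2bq, Hist1h2ao, Hist1h2ap and Hist1h2br form 2 head-to-head pairs that are copies of each other, with 0 differences over the 295 bp between their start codons. None of the 36-base words around their 5′ ends is unique in the genome. Hist2h3c1, an H3 gene, had 3.73% unique words. The sources used here do not say how reads that fit several places were handled. The part of repeated sequence in these missing peaks was not tested.

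The testis histone genes Hist1h2aa and Hist1h2ba, in contrast, have 96.3% and 83.5% unique words and still had no peak. With Hist1h1d, described above, they complete the 8. At none of the 8 did the deposited per-base lists hold a position with a false discovery rate up to 0.05 within 500 bp of the 5′ end.

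Sequence around many of these genes is repeated elsewhere. The members had a median of 64.3% unique 36-base words within 500 bp of the 5′ end, against 100% over a sample of 1097 protein-coding genes taken at every 20th gene. Below 50% stood 17 members (25.4%), against 78 of the sampled genes (7.11%), and with 76-base words 11 members did. By class, the median ran from 50.7% for H2A to 99.4% for H1. The 8 members without a peak in either library had a median of 1.86% unique words, and the 57 open ones 66.6%. Over the 50 members with at least 50% unique words, 46 were open, and the H4 median was 11.4 and 11.6 against 1.73 and 2.58 for H2B. The cut at 50% did not level the classes. Among members that passed it, the lowest share was 50% in H2B (Hist1h2bj) and 61.6% in H4 (Hist1h4k). Hist1h1b, with 98.8% unique words, had heights of 0.85 and 0.89. The part of repeated sequence in low heights was not tested.

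**Figure D2:**
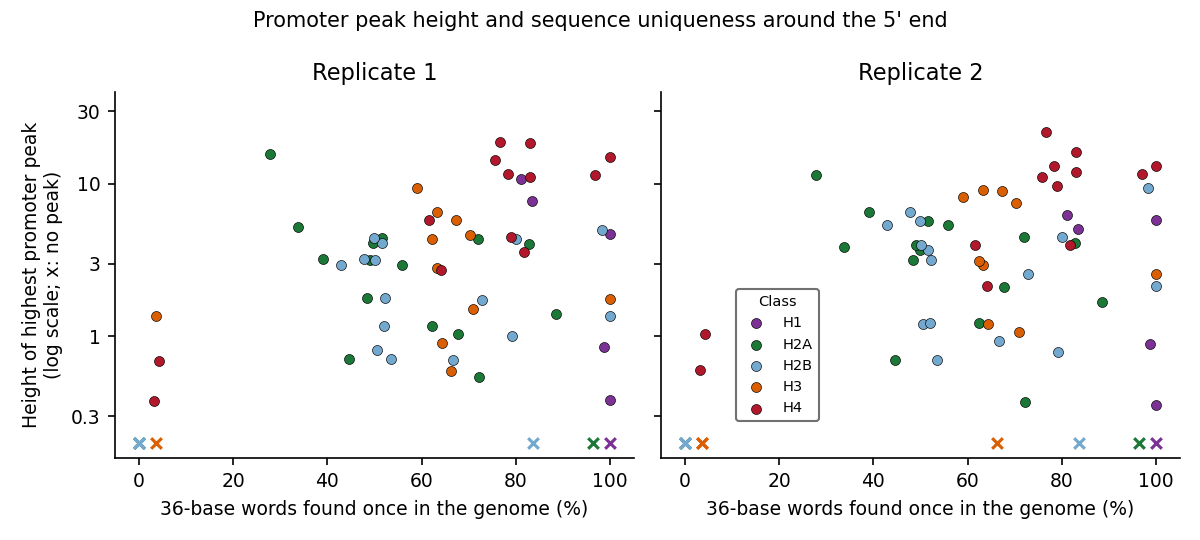
Share of 36-base words that occur once in the genome within 500 bp of the 5′ end (x axis, percent) against the height of the highest promoter peak (y axis, log scale) for each histone gene, with crosses for genes without a peak. Crosses at 0% are the copied Hist1h2bq to Hist1h2br genes, while the testis genes Hist1h2aa and Hist1h2ba have no peak at 96.3% and 83.5%.

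Head-to-head genes were defined as neighbours on opposite strands whose 5′ ends lie at most 1000 bp apart and point away from each other. There were 13 such pairs, 12 of H2A with H2B and 1 of H2B with H3, holding 26 of the 67 members. The DNA between the 5′ ends spanned 175 bp to 659 bp, with a median of 267 bp. In 9 of the 13 pairs (69.2%) a peak overlapped that stretch in both libraries, against 92.5% of 720 other head-to-head pairs of protein-coding genes.

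Each pair with a peak in a library had exactly 1 peak over the stretch between its 5′ ends. Hist1h2ag and Hist1h2bj shared a peak of 4.42 in replicate 1 and 5.73 in replicate 2, and their stretch, printed above, holds 5 CCAAT matches. Hist1h2bf and Hist1h2ad shared 3.22 and 6.55 over 4 CCAAT matches. Hist2h2ac and Hist2h2be shared 4.32 and 4.50 over 3 CCAAT matches and 1 octamer. Hist1h2an and Hist1h2bp shared 2.96 and 5.40. Within a library these 4 pairs differed from each other by less than the factor of 2 given above.

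Among the pairs without a shared peak, the copied pairs Hist1h2bq with Hist1h2ao and Hist1h2ap with Hist1h2br had none in either library. The testis pair Hist1h2ba with Hist1h2aa had none either. Hist1h2ae and Hist1h2bg had a peak of 0.71 over the stretch in replicate 1 and none there in replicate 2. The stretch of Hist1h2bq and Hist1h2ao printed above, where no word is unique, holds 3 CCAAT matches.

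All 11 H2A and H2B genes outside pairs were open, against 19 of 25 in pairs and 65.3% of all protein-coding genes. The paired genes not open were the copied Hist1h2bq, Hist1h2ao, Hist1h2ap and Hist1h2br, without unique words, and the testis genes Hist1h2aa and Hist1h2ba. Where open, the genes outside pairs were lower, with medians of 1.37 and 2.11 against 3.17 and 3.95 in pairs. A shared peak counts for both of its genes in these medians, and the difference was not tested.

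Footprints lay near 53 of 67 members (79.1%) in both libraries, against 62.8% of all protein-coding genes. Weighted to the members' spread over the CpG bins, 93.1% of protein-coding genes had one, so the members lay below genes of like CpG content. H4 genes had a median of 4 footprints within 500 bp of a start site in replicate 1 and 7 in replicate 2. For the H2A and H2B genes the medians were 3 and 5. All protein-coding genes with a peak had higher medians, 5 and 8. Those with a CpG ratio at or above the members' median, a set richer in CpG than the members, had 7 and 10. Replicate 2 held more footprints over the whole genome, so the counts are not compared between libraries.

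The footprints of H4 genes were most frequent at the same distance from the start codon in both libraries. The genes counted here had a peak within 500 bp of the start codon in that library, so Hist1h1d is among them. In the 20 bp from -80 bp to -61 bp of the start codon, 11 of 13 H4 genes had a footprint in replicate 1 and 13 of 13 in replicate 2. Other H4 bins came near. The bin that starts at -60 bp held 10 of 13 in replicate 1. Those that start at -140 bp and -20 bp held 11 of 13 each in replicate 2. For H3 genes the fullest bin was -40 bp to -21 bp, with 8 of 11 and 7 of 9. For H2A genes the bins that start at -160 bp and -100 bp tied, with 8 of 15 each in replicate 1 and 11 of 15 each in replicate 2. For H2B genes the bin that starts at -160 bp held 9 of 15 in replicate 1, while in replicate 2 it tied with 3 other bins at 8 of 15. For H1 genes 5 bins tied at 3 of 6 in replicate 1, and in replicate 2 the bin that starts at -160 bp held 5 of 6.

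**Figure D3:**
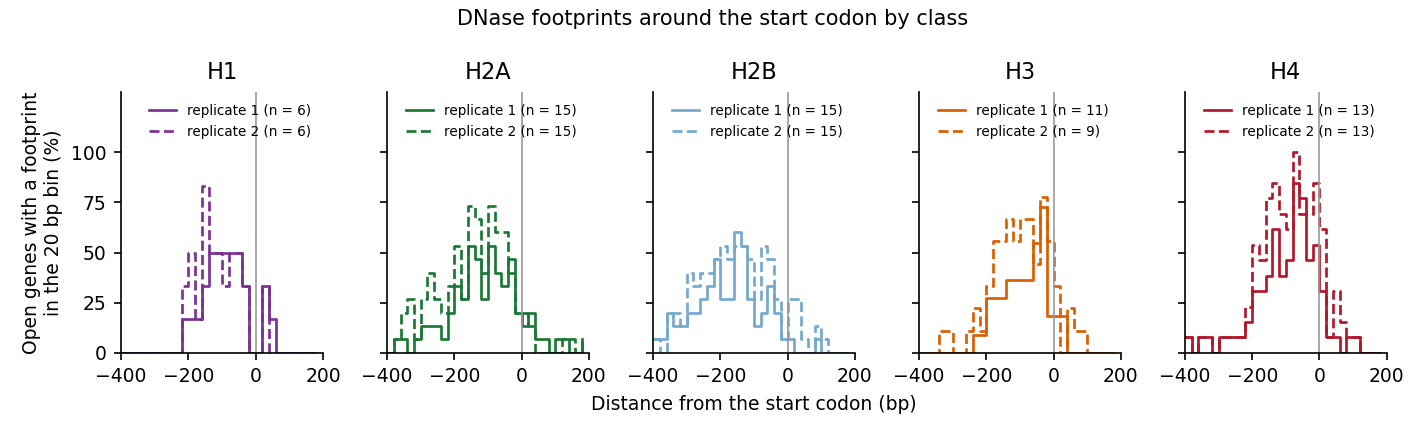
Share of genes of each class with a footprint in each 20 bp bin (y axis, percent). Distance is from the start codon (x axis, bp, negative upstream). The genes are those with a peak within 500 bp of the start codon in that library. Solid lines are replicate 1 and dashed lines replicate 2. H4 genes reach 84.6% and 100% in the bin that starts 80 bp upstream of the codon.

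The promoter windows, from 250 bp before to 50 bp after the 5′ end, differed by class in the motifs they held. Matches were counted on both strands, and genes of a pair can share them. GGTCCG, the core of the H4 element that HINFP binds in human cells, stood in 12 of 13 H4 windows, against 9.60% of all protein-coding windows. It also stood in 2 of 12 H3 and 1 of 18 H2B windows, and in no H1 or H2A window. Of those 3, the core of the H3 gene Hist1h3i lay under a footprint in both libraries. In the 12 H4 genes it began 55 bp to 85 bp before the start codon, with a median of 80 bp. The H4 gene without it was Hist1h4a, which has the tallest peak, and these letters are absent from its window on both strands.

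A footprint overlapped the core in 9 of those 12 H4 genes in replicate 1 and in 10 of 12 in replicate 2. Over matches in the windows of open protein-coding genes, the same held for 23.3% and 38.0%. High shares were not particular to the core in the H4 windows. Footprints overlapped 10 and 14 of 15 matches there to CCGCCC, a GC box, against 51.5% and 68.5% over open genes. For CCAAT they overlapped 3 and 5 of 5 matches, against 27.5% and 34.2%. For TATAAA they overlapped 4 and 5 of 7, against 14.3% and 16.5%. In Hist1h4c the core, capitalised in the sequence above, lies at chr13:23698499-23698504. It fell inside a footprint of 36 bp in replicate 1 (chr13:23698476-23698511) and of 33 bp in replicate 2 (chr13:23698477-23698509). Hist1h4m and Hist1h4n had the core without a footprint over it in either library, and they are the near-identical copies with the lowest H4 peaks. Few of the 36-base words around their 5′ ends are unique (4.24% and 3.31%). The part of this in the missing footprints was not tested. In Hist1h4m the core at chr13:21811699-21811704 lay just outside the peak, which covered chr13:21811706-21811857 in both libraries.

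CCAAT stood in all 18 H2A and all 18 H2B windows, in 11 of 12 H3 and 5 of 6 H1 windows, and in 4 of 13 H4 windows. Over all members the share was 83.6%, against 39.0% of all protein-coding windows. A footprint overlapped 21.0% of distinct CCAAT matches at open members in replicate 1 and 39.6% in replicate 2, against 27.5% and 34.2% over all open genes. The family stood below all open genes in replicate 1 and above them in replicate 2, so the libraries gave no common direction.

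The octamer ATTTGCAT stood in 8 H2B and 7 H2A windows and in no window of the other classes, against 1.57% of all protein-coding windows. Of 9 distinct octamers at open members, 0 in replicate 1 and 2 (22.2%) in replicate 2 lay under a footprint, against 14.8% and 21.8% over all open genes. AAACACA, the box of H1 promoters, stood in 4 of 6 H1, 3 of 18 H2B, 1 of 18 H2A, 1 of 12 H3 and 0 of 13 H4 windows, against 6.40% of all windows. The E2F letters stood in 5 H2A and 4 H2B windows and in no H1, H3 or H4 window, against 1.02% of all windows. Of their 5 distinct positions, 3 (60%) lay under a footprint in replicate 1 and 4 (80%) in replicate 2, against 42% and 61.5% over all open genes, and 5 positions are too few to tell these apart.

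TATAAA stood in 55.2% of member windows against 12.6% of all windows. CACGTG, an E-box, stood in 0 of 67 against 7.75%. CCGCCC, a GC box, stood in 41.8% of member windows and 43.0% of all windows.

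**Figure D4:**
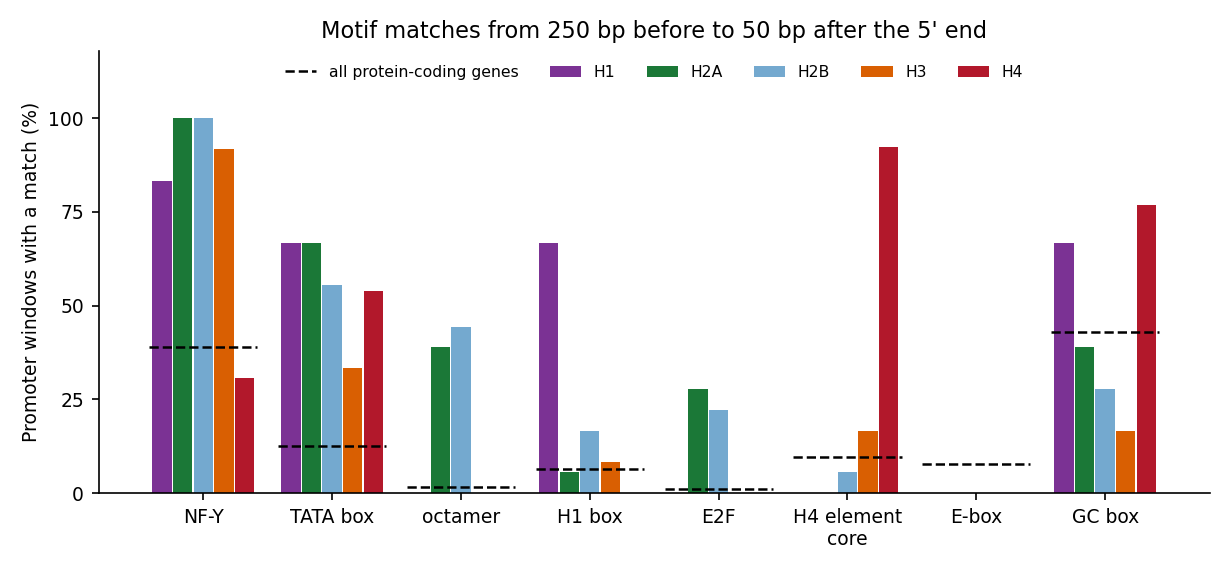
Share of promoter windows with at least 1 match to each motif (y axis, percent) for the 5 histone classes (bars) and for all protein-coding genes (dashed lines). The H4 element core stands in 92.3% of H4 windows, and the NF-Y motif in 100% of H2A and H2B windows.

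The 3′ ends of the genes carry the family's RNA signal. The stem-loop was searched as GGNNCTTTT directly followed by NAGNNCC, within 150 bp after the stop codon. It was found in 63 of 67 members (94.0%) and in 66 of all 21938 protein-coding genes (0.301%). The 3 other genes were H2afx, which encodes the variant H2A.X, H2bfm and Lrrc75b. In the members it began 25 bp to 62 bp after the stop codon, with a median of 34 bp.

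The stem differed between H4 and the other classes.
Found in 41 members of the classes H1, H2A, H2B and H3: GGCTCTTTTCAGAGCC
Found in 9 members of the same classes: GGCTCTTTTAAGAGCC
Found in 8 H4 genes: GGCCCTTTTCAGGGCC
All 12 H4 stem-loops began with GGCC or GGTC, and none of the other 51 did. No match was found for Hist1h4a, Hist1h2an, Hist1h3g and Hist2h2be, all of which were open in both libraries.

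Along the clusters, peaks were denser than over the genome. The 4 cluster windows, each padded by 10 kb, held 15.8 to 28.7 peaks per 100 kb in replicate 1 and 17.5 to 32.2 in replicate 2, against 4.60 and 6.49 over the genome. Together they held 160 and 189 peaks. Of these, 64 (40%) and 65 (34.4%) lay within 500 bp of a member's start site, 12 and 14 in the body of a member, and 16 and 20 at the start of another gene. The other 68 and 90 lay elsewhere in the windows.

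Some of the cluster peaks away from histone promoters were as tall as H4 promoters. The peak at chr13:22028761-22028940, 6224 bp from Hist1h2ah, had 10.7 in replicate 1 and 12.2 in replicate 2. The peak at chr13:23526461-23526620, 4430 bp from Hist1h4h, had 10.3 and 8.40. The peak at chr13:23739641-23739920, in the annotated body of Hist1h1c, had 8.62 and 11.9, above that gene's promoter in both libraries. These peaks were chosen after their values were seen.

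**Figure D5:**
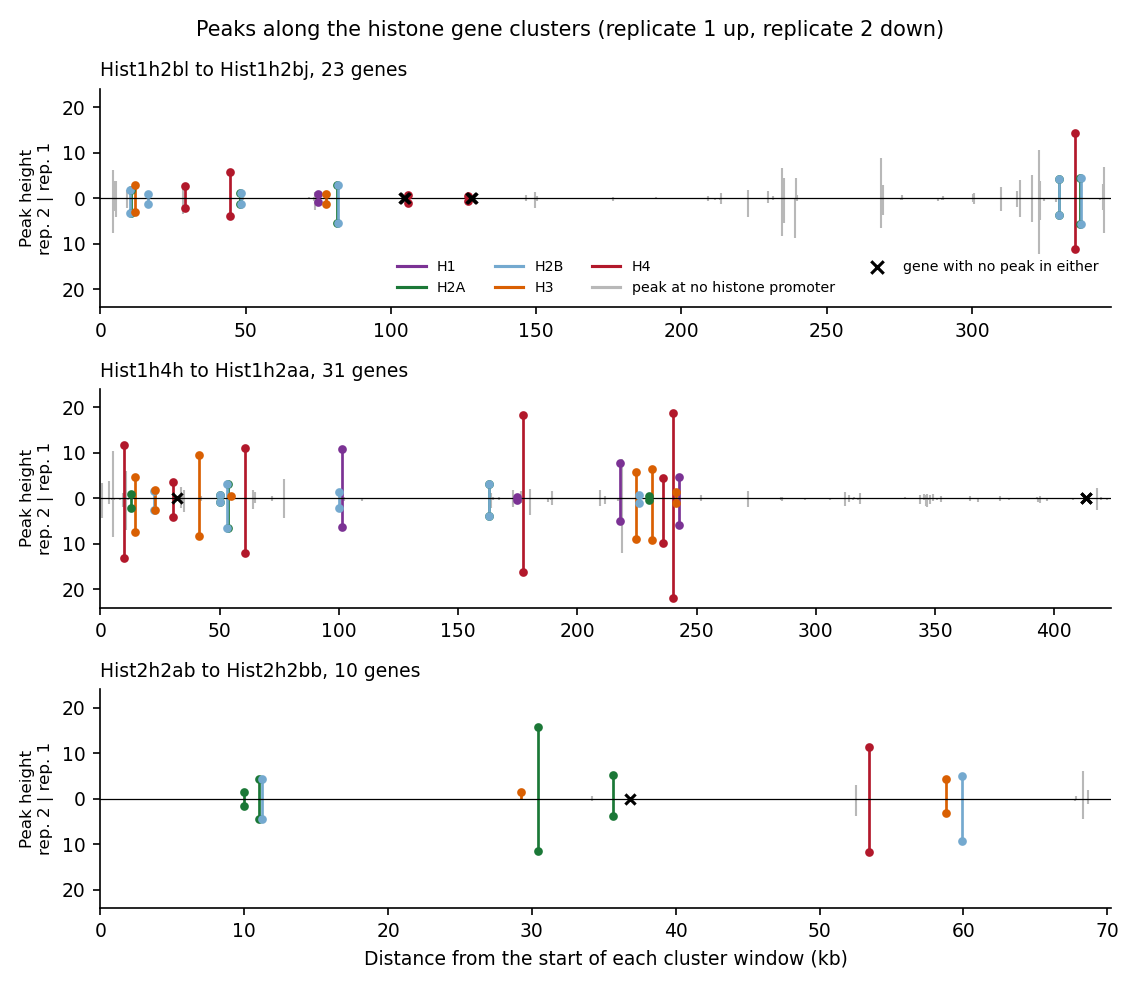
Peaks along the Hist1 clusters of 23 and 31 genes and the Hist2 cluster of 10 genes (x axis, kb from the start of each window), with height in replicate 1 upward and in replicate 2 downward (authors' signal). Coloured stems are the highest peak at each histone gene, drawn at its 5′ end, grey stems are peaks at no histone promoter and crosses are genes without a peak. The tall red stems are H4 genes, up to Hist1h4a at 18.9 and 22.0.

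The genes that regulate the family or process its transcripts were open throughout. All 26 genes of a list of such regulators had a promoter peak in both libraries, against 65.3% of all protein-coding genes, with medians of 14.2 and 14.4. Ccne1, which encodes the cyclin E1 partner of Cdk2, had 29.3 and 23.2. Nfyc and Nfya, subunits of NF-Y, had 22.5 and 23.3, and 23.8 and 21.9. Npat, the coactivator of the clusters, had 24.5 and 18.8, and Hinfp had 15.4 and 14.6. The stem-loop binding protein gene Slbp had 11.6 and 13.4. Npat, Hinfp and Slbp are not among the 3 tallest of the list and were added for their roles, after their values were seen.

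Genes of variant histones outside the family gave a contrast in height, though H2afx among them carries the family's stem-loop. Of 14 such genes, 11 were open, against 65.3% of all protein-coding genes, with medians of 13.3 and 10.01. H2afv, which encodes a form of H2A.Z, had 24.5 and 30.4. H2afj had 22.3 and 15.1, and H2afx had 13.3 and 19.4. The germ-line linker histone genes Hils1, H1fnt and H1foo had no peak in either library. The medians of both lists stood above the replication-dependent median of 3.22 and 3.95, a description that was not tested. Against the H4 median of 11.1 in each library, the regulators were higher in both and the variant histones in replicate 1 only. In the list of cell division genes, the replication licensing genes Mcm5 (16.4 and 20.4), Mcm2 (17.1 and 19.1) and Mcm7 (16.9 and 18.5) were highest by the mean of both libraries.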

How the data were processed

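DNase-seq files from 2 kidney libraries were used as deposited, on the assembly mm10 per the labels. The signal in the peak lists deposited by the authors is the height of each peak, and the sources used here do not name its normalization, the aligner or the callers. The deposited footprint lists hold a constant false discovery rate (q-value) of 0.01, and the authors' per-base false discovery rates (q-values) are listed up to 0.05. Depth is unknown, and no interval that needs it is given. The longer peak list was the main one and the shorter, stricter list an alternative. Genes were taken from the basic set of GENCODE M21, and bases were read from GRCm38.p6. Overlaps needed 1 bp. Word counts covered both strands of the genome. Scripts used Python 3.11.15, numpy 2.4.6, pandas 2.3.3, scipy 1.17.1 and numba 0.67.0, and overlaps and word counts were tested on simulated data.

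The members and gene lists were chosen with earlier results of these data known. By rule, values were written out for all H1 genes, up to 4 of the tallest and the members without a peak in 1 or both libraries of each other class, the 4 tallest pairs and those without a shared peak, and the 3 tallest genes of each list. The other 9 H4 genes, Hist1h2be, Hist1h2ab and Hist2h3b were added after their values were seen. The libraries share a donor code but have separate biosamples, so they were read as separate animals, and their spread may be technical in part. The mice carry a CAST/EiJ allele that mm10, a C57BL/6J sequence, does not show.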

Additional observations from a re-analysis of the deposited data

How the results depend on the processing

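No paired analysis was possible because the libraries form 1 group. The 57 open members became 54 with windows of 200 bp, 51 on the stricter peak list, 48 with the upper 50% of peaks and 58 at start codons. With 1 library alone they were 57 to 59, H3 genes 9 to 11, shared pair peaks 9 to 10 and members with a footprint 56. The H1 count fell from 5 to 3 with the upper 50% of peaks. Among members with at least 50% unique words, 8 H2A genes were open where 15 were in all, since fewer genes enter. That restriction moved the replicate 1 median height from 3.22 to 4.03, and the stricter list moved it to 3.79; the cause was not tested. The restriction to unique words and the windows at start codons were chosen after seeing the data. The share of unique words rose from 64.3% to 76.6% with 76-base words and to 75.1% within 200 bp. All other counts stayed within 1.5 times of the reported ones under the alternatives tried, but some heights did not. Windows of 1000 bp reached a neighbouring peak and raised the mean height of Hist1h3a from 1.29 to 20.4, Hist2h2ab from 1.54 to 4.41, Hist2h3b from 3.74 to 7.15 and Hist1h1c from 6.36 to 10.3. They moved the H3 medians from 2.82 and 3.11 to 4.61 and 8.25. The upper 50% of peaks leaves out low ones, and the replicate 1 medians rose to 7.68 for H1 and 3.06 for H2B. With depth unknown, a missing peak does not show closed chromatin, and repeated sequence limits every value on the copied genes.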

Other observations

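In 11 of 67 members the annotated model begins at the start codon, and in 2 the 5′ end lies over 1 kb from it. Peak midpoints were therefore also measured from the start codon, with negative values upstream. For H4 genes the median midpoint was -76.5 bp in replicate 1 and -85.5 bp in replicate 2. For H3 genes the medians were -75.5 and -90.5 bp, and for H2A genes -80.5 and -76.5 bp. For H2B genes they lay farther upstream, at -180 and -178 bp. At the tallest promoter, Hist1h4a, the midpoints were -224 and -174 bp.

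Other genes start inside the cluster windows. Apart from the histone genes, 2 protein-coding genes lay in the Hist3 window, 4 and 6 in the Hist1 windows and 1 in the Hist2 window. The tallest peak at such a start in replicate 1 belonged to Rnf187, beside the Hist3 genes, with 9.74 in replicate 1 and 8.03 in replicate 2, above both Hist3 members (Hist3h2a, 4.03 and 4.12; Hist3h2ba, 1.00 and 0.78).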
